A study of Haematococcus lacustris with 7 samples.

Results

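The sequences described here are those of the *H. pluvialis* transcriptome assembly that were annotated as enzymes charging transfer RNA (tRNA) with amino acids. They were taken from the Gene Ontology (GO) annotation as the sequences with at least 1 term whose name contained "tRNA ligase activity", "tRNA aminoacylation" or "aminoacyl-tRNA". This rule found 162 of the 6812 annotated sequences (2.38%), in 144 of 6164 Trinity components. A Trinity component is a group of assembled sequences that share parts of their sequence, such as splice forms or alleles of a gene. The cultures behind the assembly were treated with jasmonic acid (JA) at 25 mg/L for 1, 6 and 24 h, with salicylic acid (SA) at 25 mg/L for 1, 6 and 24 h, or with neither hormone (control, N). All 7 cultures were aliquots of a single culture of the same strain, with 1 library per condition. The annotation covers the assembly over all libraries and holds no value per library, so the number of reads, transcript levels and the response to JA and SA are not analysed here. Every value below is a count of annotated sequences, which has no replicate error, and no test was made, because sequences of a single assembly are not replicates.

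Aminoacyl-tRNA synthetases, which GO calls tRNA ligases, join each amino acid to its own tRNA at the cost of ATP. They fall into classes I and II, which differ in the fold of the catalytic domain and are not related in sequence. A green alga translates mRNA in the cytosol, in the chloroplast and in the mitochondrion, and each of these needs charged tRNAs. In plants the organellar enzymes are encoded in the nucleus, and many of them are imported into both chloroplasts and mitochondria.

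The rule selects by the charging terms themselves, so the counts of these terms describe the selection and do not test the label. A ligase term was listed for 161 of the 162, of which 159 named the amino acid and 2 carried the general term aminoacyl-tRNA ligase activity. The remaining sequence, comp1301993_c0_seq1_1, was found through the term aminoacyl-tRNA hydrolase activity, which names no charging reaction, and its only other term was translation. It is the only sequence of the whole annotation with that hydrolase term. Of the 2 sequences with the general ligase term, comp56827_c0_seq1_22 also listed tRNA aminoacylation for protein translation, ATP binding and cytoplasm. The other, comp65198_c0_seq1_24, listed protein serine/threonine kinase activity and protein tyrosine kinase activity beside it, so that its terms do not name a charging enzyme alone. These 3 sequences were chosen for naming after their terms had been seen. In the 159 sequences with a named amino acid, the ligase term and the aminoacylation term named the same amino acids in 159. Both are terms of the rule and come from the same annotation, so their agreement is not an independent check.

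A ligase term was found for each of the 20 standard amino acids. The counts ranged from 17 sequences for isoleucine to 1 for tyrosine, with a median of 8.5 sequences per amino acid. Aspartate and proline followed isoleucine with 15 sequences each, and cysteine had 12. Alanine and glutamate had 11 each, and leucine and lysine had 10 each. Phenylalanine and threonine had 9 each, methionine and valine 8 each, and glycine, serine and tryptophan 7 each. The smallest sets after these were asparagine with 6, glutamine with 5, histidine with 3 and arginine with 2. The arginine sequences were comp1297200_c0_seq1_3 and comp1895585_c0_seq1_2, and the tyrosine sequence was comp691436_c0_seq1_6. These counts are of assembled sequences and not of genes or of transcript amounts.

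**Figure D1:**
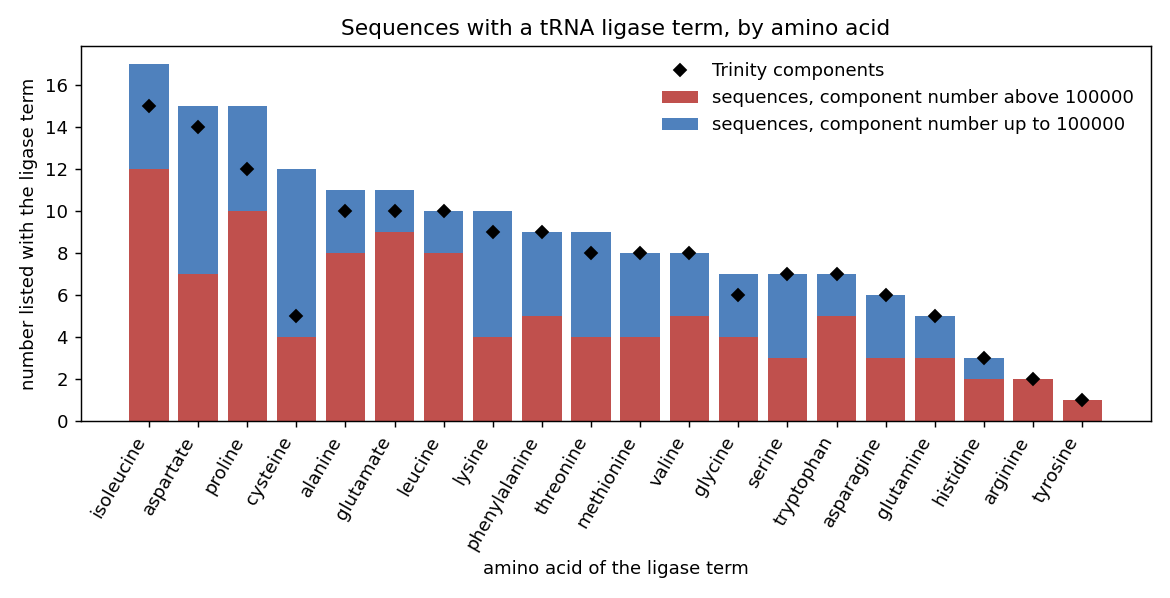
Bars give the number of sequences with the ligase term of each amino acid (y axis, counts; x axis, amino acid), divided by Trinity component number above 100000 and up to 100000, and diamonds give the number of Trinity components. Isoleucine has the tallest bar with 17 sequences, tyrosine has 1, and for cysteine the 12 sequences come from 5 components.

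Counting components changed the order. Of the 144 components, 11 held more than 1 of the sequences, and these 11 held 29 sequences. In all 11, the sequences of the component had exactly the same set of terms. Identifiers with the same component number but another c part, such as comp65515_c0 and comp65515_c1, were counted as separate components. The terms of these 2 differed, with cytosol and soluble fraction for the first and cytoplasm for the second. The component with the most was comp65444_c1, with 8 sequences for cysteine, so that the 12 cysteine sequences came from 5 components. The 15 proline sequences came from 12 components, among them comp65782_c0 with 3 sequences and comp62288_c0 with 2. The counts by component were 15 for isoleucine, 14 for aspartate, 10 each for alanine, glutamate and leucine, and 9 each for lysine and phenylalanine. For leucine, phenylalanine, methionine, valine, serine, tryptophan and the 5 smallest sets, every sequence was in a component of its own.

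The classes of the enzyme held similar numbers of sequences. Ligase terms for the 10 class I amino acids (arginine, cysteine, glutamate, glutamine, isoleucine, leucine, methionine, tryptophan, tyrosine and valine) were listed for 81 sequences in 71 components. Terms for the 10 class II amino acids were listed for 86 sequences in 78 components, and 8 sequences had terms of both classes. The division is textbook knowledge on eukaryotic enzymes and is not in the annotation.

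Ligase terms for 2 amino acids were listed for 14 sequences, and 0 sequences had terms for 3 or more. They were of only 2 kinds. In 6 sequences the pair was asparagine and aspartate, whose enzymes are closely related members of class II. These were all of the asparagine sequences, so that 0 sequences had an asparagine ligase term alone, against 9 with an aspartate ligase term alone. Component numbers above 100000 were found in 3 of the 6 and lower numbers in the other 3. Cytoplasm was listed for 3 of them (comp37106_c0_seq1_3, comp711711_c0_seq1_2 and comp811455_c0_seq1_2) and mitochondrion with chloroplast for the other 3 (comp31748_c0_seq1_4, comp63048_c0_seq2_42 and comp712008_c0_seq1_13).

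In the other 8 sequences the pair was glutamate and proline, which belong to different classes. In animals, a single bifunctional protein charges tRNA with glutamate and with proline. All 8 sequences had a component number above 100000, among them comp405948_c0_seq1_5, comp626800_c0_seq1_7 and comp1052371_c0_seq1_2, and 0 had a lower one. They had 2 sets of terms between them. In 4 sequences the set held cytoplasm, and in the other 4 it held cytosol, soluble fraction and protein complex assembly. RNA binding and protein binding were listed for all 8. Without them, glutamate was left with 3 sequences and proline with 7.

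The component numbers divided the annotated sequences into 2 groups of nearly equal size at 100000, a boundary known from earlier work on the same annotation. What sets the number was not tested. Among the tRNA charging sequences, 93 (57.4%) had a number above 100000 and 69 (42.6%) a lower one. Among the 6650 other annotated sequences the numbers were 3336 (50.2%) above and 3314 (49.8%) up to 100000. The 93 sequences above 100000 were in 93 components, and the 69 others in 51. The other annotated sequences were alike in this, with 3336 in 3336 components above 100000 and 3314 in 2685 up to 100000. Each of the 20 amino acids had a ligase term above 100000, and 18 had one up to 100000. The exceptions were arginine and tyrosine, whose 2 and 1 sequences were all above. The share above 100000 was also high for glutamate (9 of 11 sequences, 81.8%) and leucine (8 of 10, 80.0%), and it was lowest for cysteine (4 of 12, 33.3%), where comp65444_c1 supplied the 8 sequences up to 100000.

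Cytoplasm or cytosol was the most frequent location term. One or the other was listed for 127 of the 162 sequences (78.4%), with cytoplasm in 108 and cytosol in 19. Cytoplasm was the only cellular component term of 104 sequences (64.2%). Among the 6650 other annotated sequences, cytoplasm or cytosol was listed for 1472 (22.1%). A cellular component term of any kind was listed for 160 of the 162 sequences (98.8%), against 5535 of the others (83.2%). Each of the 20 amino acids had at least 1 sequence with cytoplasm or cytosol. For arginine, asparagine, glutamine, glycine, histidine, lysine, phenylalanine, tryptophan, tyrosine and valine the term was cytoplasm, and 0 sequences listed cytosol. The term cytoplasm is wider than cytosol, so these counts do not show a cytosolic enzyme for each amino acid. For 12 amino acids there was no sequence with a plastid or mitochondrial term: arginine, cysteine, glutamate, glutamine, histidine, isoleucine, leucine, methionine, proline, serine, tryptophan and tyrosine. A missing term states only what the annotation lists and gives no information on where the enzyme acts.

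Mitochondrial terms were listed for 27 sequences (16.7%), covering 8 amino acids. Plastid terms were listed for 14 of these same 27 sequences (8.64% of the 162), covering 6 amino acids. Thus all 14 sequences with a plastid term also had a mitochondrial term, and 0 sequences had a plastid term without a mitochondrial one. These 14 sequences were in 12 components, and several shared their whole set of terms, so they are not independent cases. Among the 724 other annotated sequences with a plastid term, 52 (7.18%) also had a mitochondrial term. None of the 27 organellar sequences listed cytoplasm or cytosol as well. Among the 1415 other annotated sequences with a plastid or mitochondrial term, 41 (2.90%) did so.

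**Figure D2:**
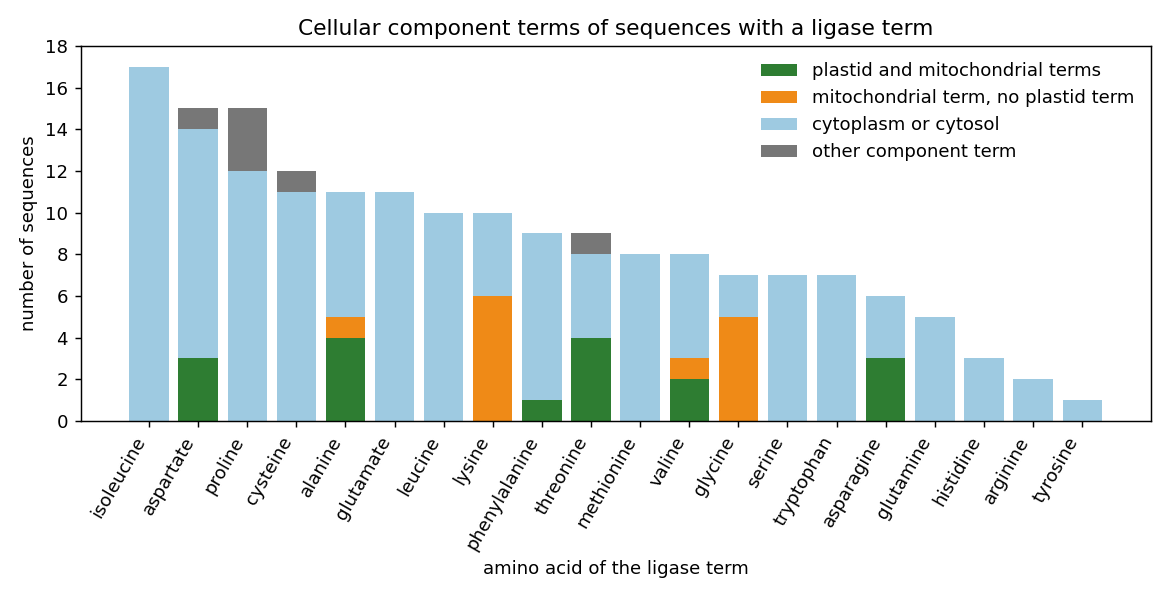
Stacked bars give the number of sequences with the ligase term of each amino acid (x axis) by cellular component term (y axis, counts): plastid and mitochondrial, mitochondrial without plastid, cytoplasm or cytosol, and other. The plastid terms lie with 6 amino acids, each time with a mitochondrial term, and the mitochondrial terms without plastid are mostly those of lysine (6 sequences) and glycine (5).

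The amino acids with plastid and mitochondrial terms together were alanine and threonine with 4 sequences each, aspartate and asparagine with the same 3 sequences, valine with 2 and phenylalanine with 1. For alanine they were comp65824_c2_seq2_45 and comp65824_c2_seq7_29 of a single component, comp488014_c0_seq1_11, and a further sequence. The last 2 of these lay above component number 100000. For threonine, comp62323_c0_seq1_22, comp19327_c0_seq1_3 and the 2 sequences of comp1456_c0 shared all their terms, which also included plasma membrane and cell wall. For valine they were comp65269_c0_seq5_29 and comp592865_c0_seq1_5. For phenylalanine, comp60798_c0_seq1_10 listed mitochondrial matrix, chloroplast stroma and membrane, and it was the only one of the 14 with a term for the inner space of both organelles. By component number, 4 of the 14 lay above 100000 and 10 did not.

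The 13 sequences with a mitochondrial but no plastid term were those of lysine (6), glycine (5), alanine (1) and valine (1). The 6 lysine sequences, among them comp62972_c0_seq2_72 and comp49285_c0_seq1_7, had the same set of terms. The 5 glycine sequences, among them comp65034_c1_seq2_20 and comp10251_c0_seq1_9, likewise had a single set. For alanine, comp855518_c0_seq1_3 listed mitochondrial alanyl-tRNA aminoacylation, and for valine the sequence was comp594483_c0_seq1_9. A further alanine sequence, comp813394_c0_seq1_2, was listed with mitochondrial translation as a process but with cytosol as its location. It was named after its terms had been seen.

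The organellar terms were spread unevenly over the classes. Mitochondrial terms were listed for 24 of the 86 class II sequences (27.9%) and for 3 of the 81 class I sequences (3.70%), which were all for valine. Plastid terms were listed for 12 class II sequences (14.0%) and 2 class I sequences (2.47%). The class II counts come from alanine, aspartate, asparagine, glycine, lysine, phenylalanine and threonine, several of them with sequences that share a component or a whole set of terms.

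The remaining 8 sequences had none of these locations. The 2 without any cellular component term were the hydrolase sequence and the sequence with kinase terms described above. The other 6 listed phagocytic vesicle or ribosome. Phagocytic vesicle was the only location of 3 sequences, 1 each for aspartate, cysteine and threonine, all with a component number above 100000. Over the whole annotation this term was listed for 81 sequences, 59 of them above 100000. Ribosome was listed for the 3 proline sequences of comp65782_c0, together with chromosome organization, a process that no other tRNA charging sequence listed. The aminoacyl-tRNA synthetase multienzyme complex, an assembly of several of these enzymes known from animals, was listed for 1 aspartate sequence, comp65075_c1_seq2_3. The sequences of this paragraph were named after their terms had been seen.

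Nearly all of the sequences listed binding of ATP, which the reaction consumes. ATP binding was present in 161 of 162 (99.4%), against 1917 of all 6812 annotated sequences (28.1%), and it was absent only from the hydrolase sequence. Binding terms come from the same annotation as the ligase terms, so these shares are not an independent check of the label. The other binding terms followed the amino acid. Nucleic acid binding was listed for 24 of the 162 sequences (14.8%), against 114 of all annotated sequences (1.67%). The 24 were among the 25 sequences with an aspartate, asparagine or lysine ligase term, and 0 of the other tRNA charging sequences listed it. These amino acids make up subclass IIb, whose enzymes hold the anticodon with a domain of the oligonucleotide-binding fold. The exception, the aspartate sequence comp1013587_c0_seq1_4, listed RNA binding and nucleus in its place and was named after its terms had been seen.

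Metal terms were listed for 58 sequences (35.8%), of which 57 named 7 amino acids and 1 was comp56827_c0_seq1_22 with the general ligase term. Among the tRNA charging sequences, zinc ion binding was confined to isoleucine, where it was listed for 17 of 17 sequences. These made up 10.5% of the tRNA charging sequences, against 375 of all annotated sequences (5.5%) with the term. Metal ion binding was listed for 12 of 12 cysteine, 11 of 11 alanine, 8 of 10 lysine, 2 of 9 threonine and 1 of 8 methionine sequences. With comp56827_c0_seq1_22, it was listed for 35 tRNA charging sequences (21.6%), against 745 of all annotated sequences (10.9%). Bacterial cysteinyl-, alanyl- and threonyl-tRNA synthetases are known to bind zinc. Magnesium ion binding was listed for 5 phenylalanine sequences and 1 lysine sequence. These 6 made up 3.7% of the tRNA charging sequences, against 136 of all annotated sequences (2%) with the term.

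tRNA binding was listed for 26 sequences of 4 amino acids: 11 of 11 for alanine, 6 of 8 for methionine, 5 of 9 for phenylalanine and 4 of 12 for cysteine. The 4 cysteine sequences with tRNA binding were all above component number 100000, and the 8 of comp65444_c1 did not list it. RNA binding was listed for 16 sequences (9.88%), against 429 of all annotated sequences (6.3%), and 11 of the 16 were all of the glutamate sequences. Over the whole annotation, 65 sequences listed tRNA binding, so that 40.0% of them were tRNA charging sequences.

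**Figure D3:**
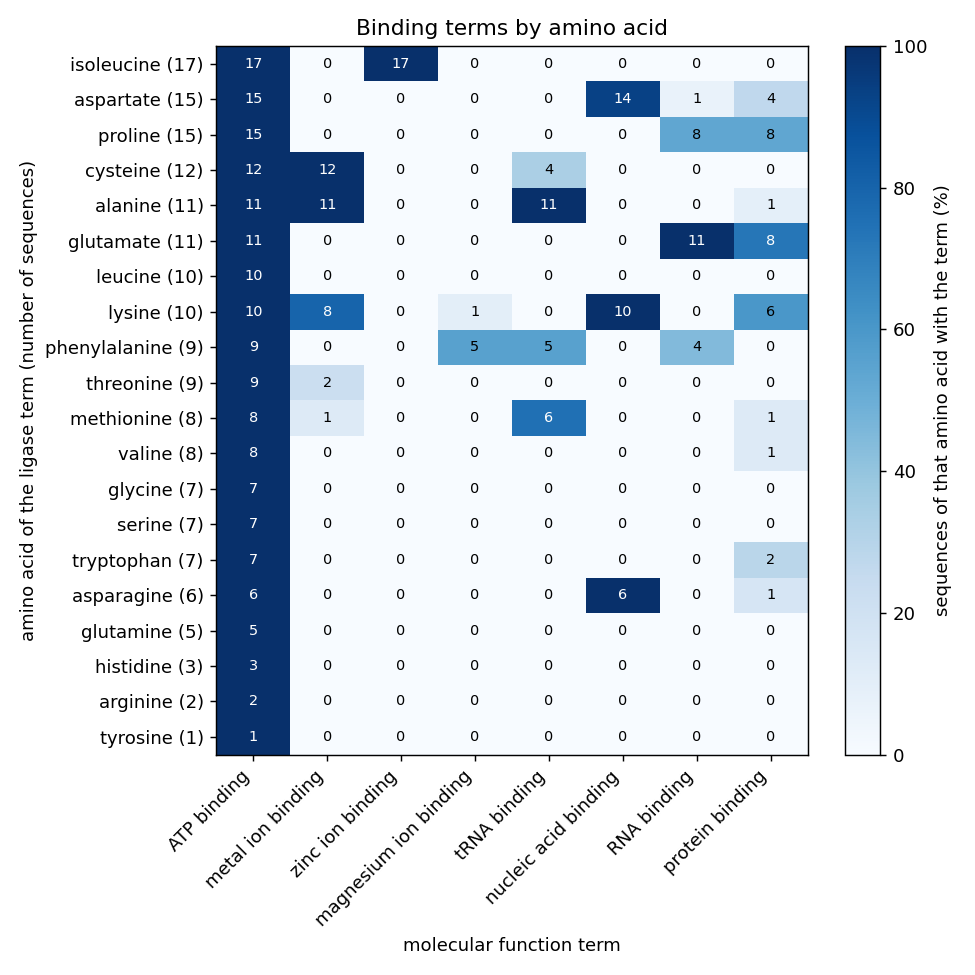
Each cell gives the number of sequences with the binding term (x axis) among the sequences of each amino acid (y axis, number in parentheses), and the shade gives the share in percent. ATP binding fills its column, zinc ion binding is filled for isoleucine alone (17 of 17), and nucleic acid binding is filled for aspartate (14 of 15), asparagine (6 of 6) and lysine (10 of 10).

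The 9 phenylalanine sequences fell into 3 sets of terms. Cytoplasm with tRNA binding was listed for 4 sequences, and cytoplasm with magnesium ion binding and RNA binding for another 4. The remaining one was the organellar sequence comp60798_c0_seq1_10. The cytosolic phenylalanyl-tRNA synthetase of eukaryotes is built of 2 kinds of subunit, whereas the organellar enzyme is a single chain. The annotation does not name subunits.

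All 7 glycine sequences listed diadenosine tetraphosphate biosynthetic process, the synthesis of a signalling nucleotide that human glycyl-tRNA synthetase is known to carry out, and protein dimerization activity. No other sequence of the annotation listed the nucleotide process. The 5 glutamine sequences had a single set of 4 terms, with cytoplasm as location, and 3 of the 5 were above component number 100000. In chloroplasts, tRNA for glutamine is charged by an indirect path, in which glutamate is first attached and then converted by an amidotransferase. The term for that enzyme, glutaminyl-tRNA synthase (glutamine-hydrolyzing) activity, was listed for 4 sequences outside the 162, in 2 components. All 4 were at component numbers up to 100000, and 0 of them listed a cellular component. Glutamyl-tRNA reductase activity, by which charged glutamate enters chlorophyll synthesis, was listed for 2 sequences outside the 162, of which comp62240_c0_seq1_15, named after its terms had been seen, listed chloroplast. Of the further reactions on charged tRNA, 0 sequences listed a tRNA term that names editing or proofreading, and 0 listed methionyl-tRNA formyltransferase. The aminoacyl-tRNA hydrolase term described above names neither editing nor proofreading and was not included in this count.

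Some process terms named features of other organisms. Nematode larval development, or the term for embryonic development up to birth or hatching of the egg, stood at 8 sequences of 7 amino acids (arginine, aspartate, glycine, isoleucine, leucine, methionine and valine), and all 8 had a component number above 100000. In the whole annotation the embryonic term stood at 129 sequences above 100000 and at 19 up to 100000. The 4 sequences with the most terms were among these 8. They were comp1347090_c0_seq1_3 and comp1366663_c0_seq1_1 for valine and comp1675568_c0_seq1_4 for glycine with 12 terms each, and comp1077305_c0_seq1_1 for methionine with 11. Next came 9 sequences with 10 terms, of which comp1052371_c0_seq1_2 for glutamate and proline, first by identifier, was not among the 8. Angiogenesis was listed for 4 of the 7 tryptophan sequences, 3 above 100000 and 1 below. In the whole annotation this term stood at 6 sequences, 3 above 100000 and 3 up to 100000. Fragments of human tryptophanyl-tRNA synthetase are known to inhibit the growth of blood vessels. Terms for seed dormancy or ovule development were listed for 5 sequences, 2 above 100000 and 3 below, all of them with chloroplast and mitochondrion as locations. In the whole annotation the seed term stood at 7 sequences above 100000 and at 16 up to 100000, and the ovule term at 1 sequence. Larvae, blood vessels and seeds are not structures of an alga.

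Response to cadmium ion was a term of 16 sequences (9.88%), of which 6 lay above component number 100000 and 10 did not. They belonged to glycine (5), alanine (4), serine (4), aspartate with asparagine (2) and methionine (1). Over all annotated sequences, 104 (1.53%) listed this term, 46 of them above 100000 and 58 up to 100000. The term is a label on the matched proteins, and no cadmium was used in the study.

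The sequences repeated each other's terms. The 162 sequences had 72 distinct sets of terms, and 125 of them (77.2%) shared their whole set with at least 1 other. Among the 6650 other sequences 4563 (68.6%) did so. The largest set was that of 12 isoleucine sequences in 11 components, with cytoplasm, ATP binding and zinc ion binding beside the charging terms. It was followed by 8 cysteine sequences of 1 component and 7 leucine sequences of 7 components. The number of terms per sequence was between 2 and 12, with a median of 5, which was also the median of the other sequences, where it was between 1 and 48. The shares of locations in these sequences are therefore not those of independent cases.

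**Figure D4:**
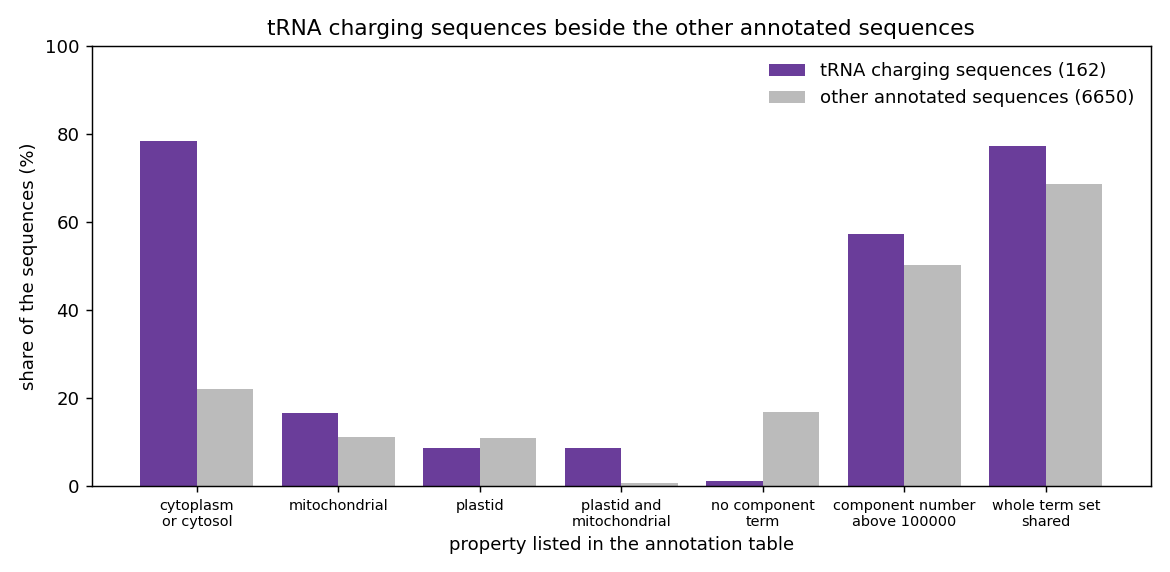
Bars give the share of sequences in percent (y axis) with each property of the annotation (x axis), for the 162 tRNA charging sequences and the 6650 other annotated sequences. Cytoplasm or cytosol is listed for 78.4% and 22.1%, mitochondrial terms for 16.7% and 11.2%, and plastid terms for 8.64% and 10.9%.

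The locations were also compared within the groups of component number. Above 100000, cytoplasm or cytosol was listed for 79 tRNA charging sequences (84.9%), against 23.8% of the other sequences there. Mitochondrial terms were listed for 10 (10.8%), against 13.0%, and plastid terms for 4 (4.30%), against 5.88%. Up to 100000, cytoplasm or cytosol was listed for 48 tRNA charging sequences (69.6%), against 20.4% of the others. Mitochondrial terms were listed for 17 (24.6%), against 9.29%, and plastid terms for 10 (14.5%), against 15.9%. The share with cytoplasm or cytosol exceeded that of the other sequences in both groups, whereas the share with mitochondrial terms exceeded that of the other sequences up to 100000 and was below it above 100000. These differences were not tested.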

How the data were processed

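RNA of 7 cultures of *H. pluvialis* was sequenced as paired-end reads by the authors, who assembled the filtered reads with Trinity. Reading frames came from GetORF, and GO terms from Blastp and GoPipe. The file they deposited is text of another kind than a measurement: 39529 lines in 4 columns, which give a sequence, a GO identifier, the term and its domain. Of these columns, 0 give a value for a library, and depth is not analysed here.

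Sequences were selected by words in the term names and counted as distinct identifiers. The component was read from the identifier up to the sequence number. Amino acids were read from the ligase terms, and locations from the cellular component terms: plastid (chloroplast, plastid, thylakoid, stroma), mitochondrial (mitochond), and cytoplasm or cytosol by exact name. The members and lists were chosen with earlier results of these data known, as was the boundary at component number 100000. Identifiers were named for the 5 sequences with the most terms (ties in order of identifier), sequences with 2 amino acids, amino acids with 1 or 2 sequences, and up to 3 sequences per amino acid and organelle. Other sequences named are marked as chosen later, and components were named after their counts had been seen. No test was made. Counting was tested on simulated data. A count within 1.5 times was taken as the same. A table of 30548 RefSeq genes of *Haematococcus lacustris* (ASM3014472v1) shared 0 identifiers with the annotation. Gene names and sequences are therefore not given. Python 3.11.15 and Matplotlib 3.10.9 were used.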

Additional observations from a re-analysis of the deposited data

How the results depend on the processing

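Of 30 alternative counts, 23 stayed within 1.5 times the reported value and 7 did not. With component numbers up to 100000 alone, which leaves fewer sequences by construction, the count of sequences became 69, those with mitochondrial terms 17, those with cytoplasm or cytosol 48, those without a component term 1 and those with ligase terms for 2 amino acids 3. The last change removed all of the sequences with glutamate and proline together. Requiring a ligase term left 1 sequence without a component term. Any term name with tRNA gave 261 sequences, since terms for tRNA binding, processing and modification were added. The number of amino acids with a ligase term was between 18 and 20 under its 5 alternatives. It was 18 up to component number 100000 and 19 with at least 2 Trinity components per amino acid. No paired analysis was possible because the annotation holds no values per sample. Whether sequencing depth limited the assembly of these sequences was not tested.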

Other observations

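Beside the charging terms, 24 other term names of the annotation contained tRNA. They were listed for 125 sequences, of which 26 were tRNA charging sequences and 99 were not. The overlap came from tRNA binding, listed for 26 of the tRNA charging sequences, and from tRNA processing, listed for the organellar phenylalanine sequence. tRNA processing, the trimming and maturation of tRNA, was listed for 38 sequences in 24 components. tRNA modification was listed for 15 sequences in 11 components. tRNA dihydrouridine synthase activity, which reduces uridines of the tRNA, was listed for 11 sequences in 4 components, of which 10 had no cellular component term. Component numbers above 100000 were found in 57.4% of the tRNA charging sequences and in 38 of these 99 (38.4%). This difference was not tested.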
